A study of Homo sapiens with 24 samples.

Results

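EGFR and its relatives ERBB2, ERBB3 and ERBB4 form the ERBB family of receptor tyrosine kinases. They were taken as the 4 rows of the deposited count table whose Ensembl identifiers carry these symbols, out of 58676 identifiers. The 4 genes were followed through 24 RNA sequencing libraries of HSJD-DIPG-007, an established diffuse midline glioma (DMG) cell line grown as spheroids. All groups share the genotype H3F3A K27M, ACVR1 R206H and PIK3CA MIS (as labelled), and all grew in a medium that holds EGF, FGF, PDGF-AA and PDGF-BB. Cultures were given the PRMT5 inhibitor LLY-283 at its GI40, a concentration that slows growth in part, or vehicle (DMSO), once according to the labels, while the study's methods describe a further dose with new medium after 5 days, so the dosing behind days 7 and 10 is uncertain. Each arm has 3 libraries at day 0, 3 at day 5, 2 at day 7 and a single one at days 1, 2, 3 and 10. This is 1 cell line, and the study calls its libraries technical repeats, so the p-values measure only the spread between these libraries.

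The ERBB receptors sit in the cell membrane and carry growth signals inward. Ligands of the EGF family bind EGFR, ERBB3 or ERBB4, the bound receptors pair, and the kinase of one partner phosphorylates the other, which feeds the RAS-MAPK and PI3K-AKT pathways. ERBB2 binds no known ligand and acts as a partner of the others, whereas ERBB3 binds neuregulins but has a weak kinase. In the brain, EGFR is known from glial progenitor cells and from gliomas, in which it is often amplified or mutated, and PRMT5, the target of LLY-283, places symmetric dimethyl marks on arginines of histones, splicing factors and other proteins.

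On GRCh38, EGFR (ENSG00000146648) lies on chromosome 7 from 55019017 to 55211628 on the plus strand, and ERBB2 (ENSG00000141736) on chromosome 17 from 39687914 to 39730426 on the plus strand. ERBB3 (ENSG00000065361) lies on chromosome 12 from 56076799 to 56103505 on the plus strand, and ERBB4 (ENSG00000178568) on chromosome 2 from 211375717 to 212538841 on the minus strand. All 4 are annotated as protein-coding genes, and counts are sums over the whole gene. Reads near shared exons are uncertain, since use of strand in the counting is not given in the sources used here. ERBB2 exons overlap those of MIEN1 over 571 bases and of PGAP3 over 144 bases on the other strand, and EGFR exons overlap the antisense gene EGFR-AS1 over 186 bases, a gene with at most 12 counts in any library. ERBB3 shares 31 exon bases with ENSG00000257411 on the same strand, whose median count of 292.5 is above that of ERBB3 itself.

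EGFR and ERBB2 gave the results below that passed a test. Both were higher with LLY-283 at day 5 and went opposite ways from day 0 to day 5. A RefSeq start region of each is therefore shown side by side. The sequences are from RefSeq (GRCh38.p14) and run from 250 bases before to 50 bases after the RefSeq start, chr7:55018767-55019066 on the plus strand for EGFR and chr17:39687844-39688143 on the plus strand for ERBB2. Capitals mark matches, on either strand, to the GC box (GGGCGG), the E box (CACGTG), a SOX core (ACAAAG) or a TATA box (TATAAA).
EGFR: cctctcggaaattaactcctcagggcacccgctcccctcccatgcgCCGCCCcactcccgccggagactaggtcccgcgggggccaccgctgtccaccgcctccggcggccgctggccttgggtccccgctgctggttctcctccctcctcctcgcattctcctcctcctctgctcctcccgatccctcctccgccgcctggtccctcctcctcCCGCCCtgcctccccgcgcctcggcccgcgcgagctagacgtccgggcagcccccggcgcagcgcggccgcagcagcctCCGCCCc
ERBB2: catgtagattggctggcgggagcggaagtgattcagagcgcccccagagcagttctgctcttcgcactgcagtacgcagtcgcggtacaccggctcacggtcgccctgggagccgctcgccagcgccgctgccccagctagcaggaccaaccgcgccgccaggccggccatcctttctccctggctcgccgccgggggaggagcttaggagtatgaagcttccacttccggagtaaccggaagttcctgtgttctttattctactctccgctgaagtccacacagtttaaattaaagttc
The EGFR window was 75.3% G and C and held 3 GC boxes, whose first bases lie at -204, -36 and 44 from the start, while the ERBB2 window was 60.7% G and C and held none of the 4 motifs. The median over all RefSeq start windows was 58.7% G and C. A GC box stood in 45% of the 35116 windows, a TATA box in 11.5%, a SOX core in 16.1% and an E box in 7.26%, and none of the last 3 was in the EGFR window. RefSeq lists a further start for EGFR inside the gene, which is not shown. The ERBB2 window lies at the upstream end of the gene, and PGAP3 exons overlap ERBB2 exons on the other strand. Whether ERBB2 RNA begins at this start in these cells was not tested, so its values describe this window only. The ERBB4 window at chr2:212538753-212539052 on the minus strand held 1 GC box, at -226.

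A library held 13835205 to 23190369 counts in total (median 18688160.5). Of the 8 markers of oligodendrocyte precursors, 5 were at or above a median of 1 CPM (counts scaled to a common library size, with TMM factors), and SOX10, GPR17 and LHFPL3 were below it. All 7 microglia markers and all 6 epithelial markers were below a median of 1 CPM, as were 4 of 5 endothelial, 3 of 8 astrocyte, 3 of 6 neuron, 4 of 7 myelinating oligodendrocyte and 2 of 12 fibroblast markers. Fibroblast genes stood out in 3 libraries, repeat 1 of vehicle at day 7, repeat 3 of vehicle at day 5 and the LLY-283 library of day 2, with COL1A1 at 31.0 to 53.6 CPM against 4.57 to 10.8 CPM in the other 21. At day 7, the libraries labelled repeat 1 and repeat 2 of an arm differed by a chi-square per degree of freedom of 11.2 for vehicle and 13.4 for LLY-283, against 1.65 to 3.79 within groups at days 0 and 5. The library labelled LLY-283 day 7 repeat 2 lay closest to that labelled vehicle day 7 repeat 1, at 2.93. Vehicle day 7 repeat 2 and LLY-283 day 7 repeat 1 were nearest to each other but still far apart, at 10.6. The arm of the day 7 libraries is therefore in doubt and their values are given by label. Among all receptor and pathway genes listed here, leaving out vehicle day 5 repeat 3 ended the day 5 calls of STUB1, ETV4, ETV5 and EGR1, gave one for SPRY4 and turned no call around.

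EGFR was by far the most abundant of the 4 receptors in these cells, ERBB2 came next, and ERBB3 and ERBB4 gave few counts. Per kilobase of the longest annotated transcript, the EGFR level was 41.5 to 70.3 CPM per kb over the 24 libraries, with a median of 53.1. ERBB2 lay at 5.73 to 11.96 CPM per kb with a median of 8.95. ERBB3 lay at 0.0657 to 0.255 CPM per kb and ERBB4 at 0.0121 to 0.112 CPM per kb. Of the summed level of the 4 receptors per kb, EGFR made up a median of 84.3%, ERBB2 15.3%, ERBB3 0.235% and ERBB4 0.0732%. Each EGFR value was above each ERBB2 value, and each ERBB2 value above each ERBB3 and ERBB4 value, so the order of the first 2 over the others does not depend on the library. ERBB3 was above ERBB4 per kb in 24 of 24 libraries, but in 21 of 24 when the length of all merged exons was used, and their ranges overlapped.

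The raw counts set how firmly each receptor can be described. EGFR had 6010 to 14122 counts in a library and ERBB2 had 545 to 1105. ERBB3 had 8 to 27 counts with a median of 17, and ERBB4 had 2 to 23 with a median of 11.5. Ranked among the 58207 genes with a length by CPM per kb, EGFR stood at place 760 to 1520 and ERBB2 at 5266 to 8127, ERBB3 at 19012 to 26509 and ERBB4 at 23072 to 28064.

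**Figure D1:**
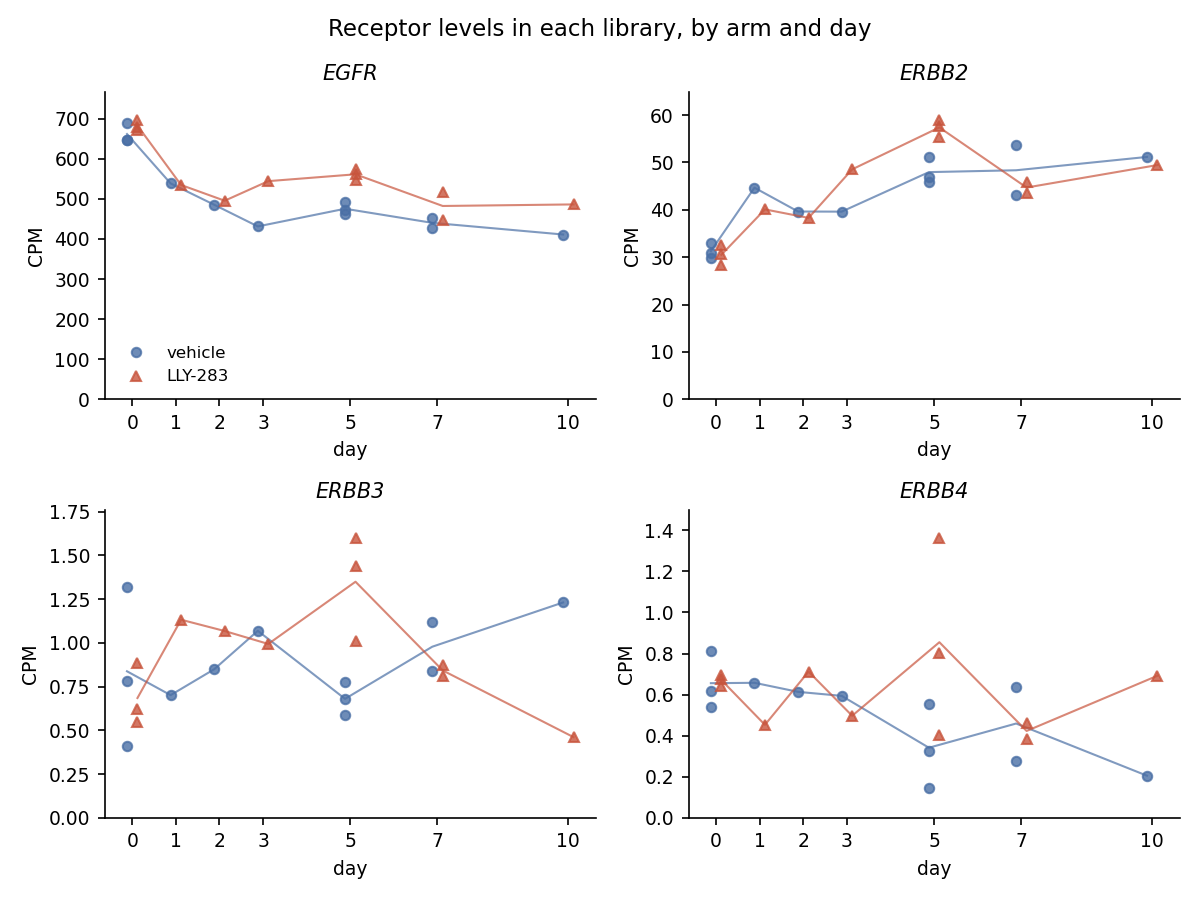
Level of each receptor in CPM (vertical axes, starting at 0 and scaled per gene) by day (horizontal axes) in each of the 24 libraries, with vehicle as blue circles, LLY-283 as red triangles and lines through the mean of each arm and day. EGFR is highest at day 0 and ERBB2 lowest at day 0 in both arms, the arms separate for both at day 5, and ERBB3 and ERBB4 scatter at or below 1.60 CPM.

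EGFR RNA was lower in every library after day 0 than in any library of day 0, in both arms. From day 0 to day 5 the fitted fall was smaller with LLY-283. The interaction test of this, given below, depended on single libraries and gave no call over days 0 to 7. At day 0 the EGFR level was 647, 690 and 647 CPM in the vehicle libraries and 680, 671 and 697 CPM in the LLY-283 libraries. At day 1 it was 538 CPM with vehicle and 535 CPM with LLY-283, and at day 2 it was 485 and 495 CPM. The log2 difference between the arms was 0.05, -0.01 and 0.03 on these days. At day 3 the level was 431 CPM with vehicle and 544 CPM with LLY-283, a difference of 0.34. At day 5 it was 492, 471 and 462 CPM with vehicle and 561, 547 and 576 CPM with LLY-283. The groups did not overlap at day 5, each LLY-283 library lying above each vehicle library. At day 7 the libraries labelled vehicle had 428 and 452 CPM and those labelled LLY-283 had 518 and 446 CPM, so the arms overlapped, through LLY-283 repeat 2. At day 10, with 1 library an arm, the values were 411 CPM with vehicle and 486 CPM with LLY-283.

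The day 5 comparison asks what LLY-283 changes at the replicated treated day, and EGFR was called higher in it (log2 fold change 0.23, SE 0.0361, adjusted p = 9.7e-06, edgeR quasi-likelihood test with Benjamini-Hochberg adjustment, n = 3 and 3). Genes were called at an adjusted p under 0.01, which 26.1% of the 16491 genes tested reached at day 5, with 12% higher and 14.1% lower, and the libraries of the arms did not overlap for 46.1%. The call for EGFR thus stands among many, and its size is modest. In bulk RNA, a change in the share of cells that hold a transcript and a change in the RNA per cell cannot be told apart. Without vehicle day 5 repeat 3 the EGFR difference was still called, as it was with each other library of day 5 left out in turn, with values between 0.20 and 0.25. The summed level of the 8 oligodendrocyte precursor markers moved with it, from 5153 to 5462 CPM with vehicle to 6024 to 6287 CPM with LLY-283 at day 5, mostly through PTPRZ1, while OLIG2 was at 359 CPM with vehicle and 331 CPM with LLY-283 on average. Of the 6 precursor markers tested, 3 were called higher and 1 lower. The sum of the 6 neuron markers lay at 109 to 112 CPM with vehicle and 159 to 170 CPM with LLY-283, made up mainly of GAD1 and SYT1, with RBFOX3 at 1.26 and 1.21 CPM and GAD2 at 0.347 and 0.275 CPM on average. Myelinating oligodendrocyte markers summed to 127 to 133 CPM and 141 to 145 CPM, and the astrocyte sums overlapped between the arms. The fibroblast sums also overlapped, at 260 to 437 CPM with vehicle and 354 to 359 CPM with LLY-283. The vehicle range includes repeat 3, a library high in fibroblast genes. The part of these markers in the result was not tested.

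ERBB2, the partner without a ligand, rose with time in both arms and was higher with LLY-283 at day 5. At day 0 its level was 29.9, 31.0 and 33.0 CPM with vehicle and 32.5, 30.7 and 28.3 CPM with LLY-283. On day 1 it stood at 44.7 CPM with vehicle and 40.1 CPM with LLY-283, and on day 2 at 39.6 and 38.3 CPM. Every library after day 0 thus lay above every library of day 0. At day 3 the level was 39.6 CPM with vehicle and 48.5 CPM with LLY-283. By day 5 it was 51.1, 46.9 and 45.8 CPM with vehicle and 57.8, 59.0 and 55.4 CPM with LLY-283. The arms were again separate at day 5, by 0.25 on the log2 scale (SE 0.0517, adjusted p = 3.7e-04, edgeR). At day 7 the libraries labelled vehicle had 43.03 and 53.7 CPM and those labelled LLY-283 had 45.8 and 43.6 CPM, and at day 10 the values were 51.2 CPM with vehicle and 49.4 CPM with LLY-283, so the order seen at day 5 did not hold at day 10. With the spread taken from all 22 libraries of days 0 to 7, the day 5 difference of ERBB2 was 0.22 with an adjusted p of 0.034 and was no longer called. That spread takes in the day 7 libraries, whose arm is in doubt, and fewer of all genes were called in this fit.

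ERBB3 and ERBB4, the neuregulin receptors, gave too few counts for firm statements. At day 5, ERBB3 had 11, 12 and 8 counts with vehicle and 27, 27 and 20 counts with LLY-283, or 0.677, 0.776 and 0.588 CPM against 1.60, 1.44 and 1.01 CPM. The libraries did not overlap, LLY-283 lying above vehicle, which held for 23.2% of all genes tested. The difference of 0.96 on the log2 scale (SE 0.337) missed the threshold in edgeR at an adjusted p of 0.0265. At day 7 and day 10 the order was not kept, with 0.837 and 1.12 CPM for vehicle and 0.873 and 0.812 CPM for LLY-283 at day 7, and 1.23 and 0.461 CPM at day 10. ERBB4 had 9, 5 and 2 counts with vehicle and 23, 15 and 8 counts with LLY-283 at day 5, which is 0.554, 0.323 and 0.147 CPM against 1.36, 0.800 and 0.404 CPM. Its groups overlapped, and it did not pass the filter on low counts at day 5. Without that filter its difference was 1.24 (SE 0.47, adjusted p = 0.053, edgeR).

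At day 0 none of the 4 receptors differed by the test between the arms, and neither did nearly any gene. The fitted day 0 differences of LLY-283 against vehicle were 0.04 for EGFR (adjusted p = 0.90), -0.04 for ERBB2 (0.95), -0.29 for ERBB3 (0.94) and 0.03 for ERBB4 (0.99) on the log2 scale in edgeR. Only 0.0169% of the 17780 genes tested were called at day 0, and the libraries of the arms did not overlap for 11%. The 3 values of each arm overlapped for all 4 receptors.

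The change from day 0 to day 5 was larger in fitted size than the difference between arms for EGFR and ERBB2. In the vehicle libraries EGFR fell by 0.47 on the log2 scale (SE 0.0381, adjusted p = 4.2e-11, edgeR), and in the LLY-283 libraries it fell by 0.28 (SE 0.0314, adjusted p = 4.8e-08). ERBB2 rose by 0.63 with vehicle (SE 0.0575, adjusted p = 4.0e-10) and by 0.91 with LLY-283 (SE 0.0531, adjusted p = 3.6e-13). ERBB3 was not called in either arm, with -0.28 for vehicle (adjusted p = 0.59) and 0.96 for LLY-283 (adjusted p = 0.0142). ERBB4 was tested in the LLY-283 libraries alone, with 0.32 (adjusted p = 0.52). As background, 38.9% of 17106 genes were called between day 5 and day 0 with vehicle and 42.4% of 17341 with LLY-283, so a change with time was common, and the libraries of both days did not overlap for 56.8% and 56.9%. Without vehicle day 5 repeat 3 the change with vehicle was -0.43 for EGFR and 0.67 for ERBB2, both still called. The 2 comparisons over time and the 2 between arms share libraries and are not independent of each other.

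**Figure D2:**
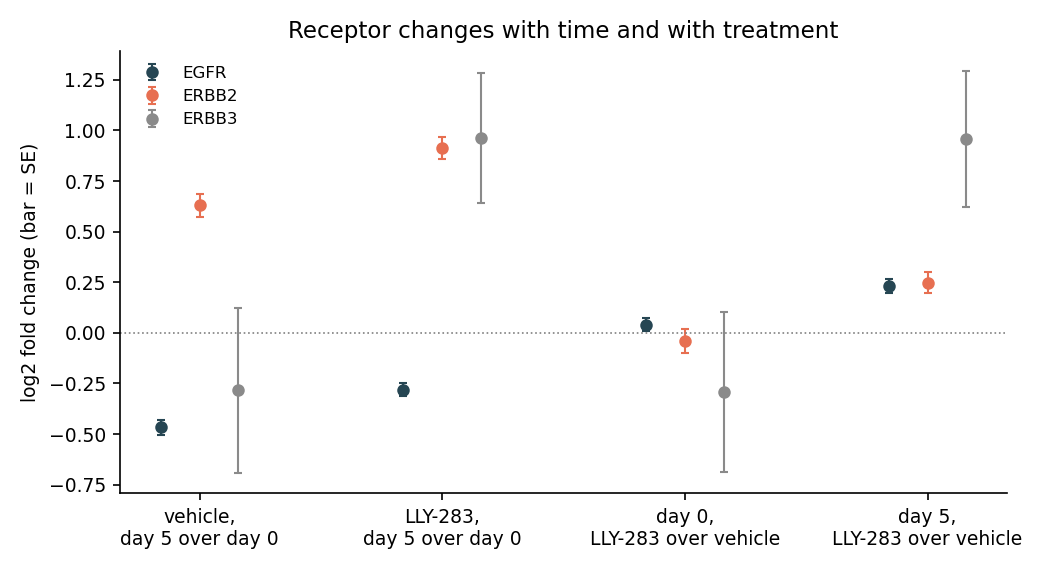
Fitted log2 fold change (vertical axis, points) with its SE (bars) of EGFR, ERBB2 and ERBB3 in the 4 comparisons of days 0 and 5 (horizontal axis, 3 libraries a group). EGFR lies at -0.47 and -0.28 over time and ERBB2 at 0.63 and 0.91, both lie near 0 between the arms at day 0, and both lie above 0 between the arms at day 5, while the bars of ERBB3 are several times as long.

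Over days 0 and 5 alone, the treatment difference at day 5 exceeded that at day 0 by 0.19 for EGFR (SE 0.0491, adjusted p = 0.0042) and by 0.29 for ERBB2 (SE 0.0800, adjusted p = 0.0077), an interaction test in edgeR on 12 libraries that was added after the data were seen. This interaction was called for 14.9% of 18369 genes. The calls of both receptors were near the threshold and depended on single libraries, while the sign did not. Leaving out 1 of the 12 ended the EGFR call in 6 cases, with values of 0.14 to 0.21 and an adjusted p of up to 0.062. It ended the ERBB2 call in 8 cases, with values of 0.23 to 0.34 and an adjusted p of up to 0.043. The calls of both were lost without repeat 2 of either arm at day 0 and without repeats 2 or 3 of vehicle at day 5. EGFR alone lost its call without repeat 1 of day 0 or repeat 3 of day 5 under LLY-283, and ERBB2 alone without repeat 3 of either arm at day 0 or repeats 1 or 2 of the LLY-283 libraries of day 5. In the interaction test over all 22 libraries of days 0 to 7, taken by their labels, neither was called (adjusted p = 0.43 for EGFR and 0.30 for ERBB2), and 0.0289% of 20756 genes were. Without both day 7 repeat 2 libraries the adjusted p was 0.012 for EGFR and 0.043 for ERBB2, still short of the threshold.

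With days 1 to 10 in a single fit, with 9 libraries an arm and day as a term, EGFR was 0.17 higher with LLY-283 on the log2 scale (SE 0.0378) and missed the threshold narrowly (adjusted p = 0.0101, edgeR). It was called (adjusted p = 5.6e-04) at 0.19 when both day 7 repeat 2 libraries were left out. Leaving out 1 library gave a call in 4 of 18 cases, namely vehicle day 1 (0.0086), LLY-283 day 1 (0.0083), vehicle day 7 repeat 2 (0.0052) and LLY-283 day 7 repeat 2 (9.3e-04), with the adjusted p in parentheses. Without the 3 libraries high in fibroblast genes the difference was 0.17 and the adjusted p was 0.079. ERBB2 differed by 0.06 over these days (adjusted p = 0.53), ERBB3 by 0.22 (0.53) and ERBB4 by 0.46 (0.34), and 3.06% of all genes tested were called.

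The balance between EGFR and ERBB2 shifted between day 0 and the later days in both arms. Per kb, the ratio of EGFR to ERBB2 was 10.5 ± 0.696 with vehicle and 11.2 ± 0.971 with LLY-283 at day 0 (SD, n = 3 each). By day 5 it had come to 4.94 ± 0.128 with vehicle and 4.87 ± 0.280 with LLY-283 (SD, n = 3 each). The ratio at each day 0 library, 9.76 or more, was above that at each later library, and the lowest was 3.999. The arms overlapped at day 5. No test was run on this ratio.

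**Figure D3:**
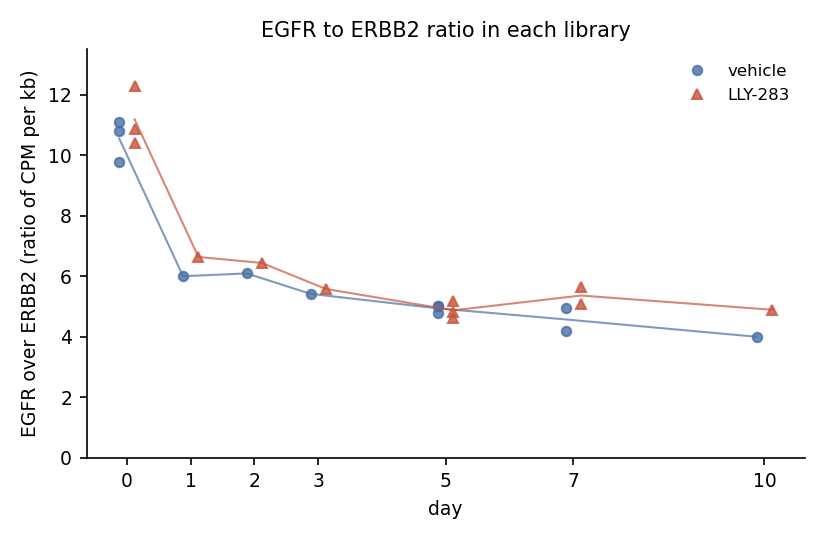
Ratio of EGFR to ERBB2, each in CPM per kb of its longest transcript (vertical axis, starting at 0), by day (horizontal axis) in each library, with vehicle as blue circles, LLY-283 as red triangles and lines through the means. The ratio drops from 9.76 to 12.3 at day 0 to between 3.999 and 6.64 later, in both arms.

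The genes whose level followed EGFR most closely over the 24 libraries, by Pearson correlation of log2 CPM among 14867 genes with a mean of at least 1 CPM, were GLIPR1 (r 0.955), the glutamate receptor subunit gene GRIK2 (0.951) and CHRDL1, which encodes a BMP antagonist (0.944). For ERBB2 they were the sorting receptor gene SORT1 (0.969), LITAF (0.966) and NAB1 (0.964). These values describe likeness of pattern only, and the libraries share their days and normalization. The highest values for ERBB3 and ERBB4 were 0.625 with TTC24 and 0.762 with TRAM2-AS1, which at the counts of these receptors are not read as likeness.

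Of the 11 genes for EGF family ligands, 7 passed the filter at day 5, and 3 of these were called higher with LLY-283 and 0 lower. The background for calls in that direction is the 12% given above. TGFA, AREG, EPGN and NRG3 did not pass the filter and were at most 0.397 CPM in any library. The called genes, EGF, EREG and BTC, all encode ligands of EGFR, as does HBEGF, which was not called. On day 5 EGF was at 9.99 ± 0.136 CPM with vehicle and 14.6 ± 1.93 CPM under LLY-283 (SD, n = 3 each), a log2 difference of 0.54 (SE 0.104, adjusted p = 1.3e-04, edgeR). EREG, the epiregulin gene, was at 1.62 ± 0.347 CPM with vehicle and 3.49 ± 0.362 CPM with LLY-283, a difference of 1.09 (SE 0.223, adjusted p = 3.0e-04). BTC, the betacellulin gene, was at 0.730 ± 0.128 CPM with vehicle and 2.20 ± 0.323 CPM with LLY-283, a difference of 1.58 (SE 0.300, adjusted p = 1.2e-04). Its vehicle level was near that of ERBB3 (0.680 CPM), a receptor with few counts, so the size of this difference is uncertain. For these 3 genes the libraries of the arms did not overlap at day 5, LLY-283 lying above vehicle, which held for 23.2% of all genes tested. HBEGF (-0.08), NRG1 (0.26), NRG2 (0.16) and NRG4 (-0.33) were not called, with NRG1 nearest at an adjusted p of 0.059. The median difference of the 7 ligand genes was 0.26, beside 0.02 over all genes tested.

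With time, the ligand genes went different ways. EREG was at 7.49 ± 0.637 CPM at day 0 with vehicle and fell by 2.19 on the log2 scale to day 5 (adjusted p = 4.5e-11, edgeR), while with LLY-283 it fell by 1.16 (adjusted p = 1.3e-07). BTC fell by 1.43 with vehicle (adjusted p = 2.9e-04), and with LLY-283 its difference was 0.12 (adjusted p = 0.68). EGF rose by 0.53 with vehicle and by 1.06 with LLY-283. NRG1, the gene of the main neuregulin, rose by 0.96 with vehicle and by 1.13 with LLY-283, from 4.44 ± 0.943 and 4.74 ± 0.391 CPM at day 0. None of the 7 ligand genes was called in the fit over days 1 to 10, where EGF stood at 0.15 (adjusted p = 0.33), EREG at 0.60 (adjusted p = 0.040) and BTC at 0.66 (adjusted p = 0.087). Of the single-library days, the order of the arms for EGF was the other way on days 1, 2 and 10 but not on day 3. With vehicle first, EGF was at 9.07 and 7.93 CPM on day 1 and 8.87 and 8.49 CPM on day 2. It was at 8.25 and 10.05 CPM on day 3, and at 20.996 and 16.6 CPM on day 10.

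**Figure D4:**
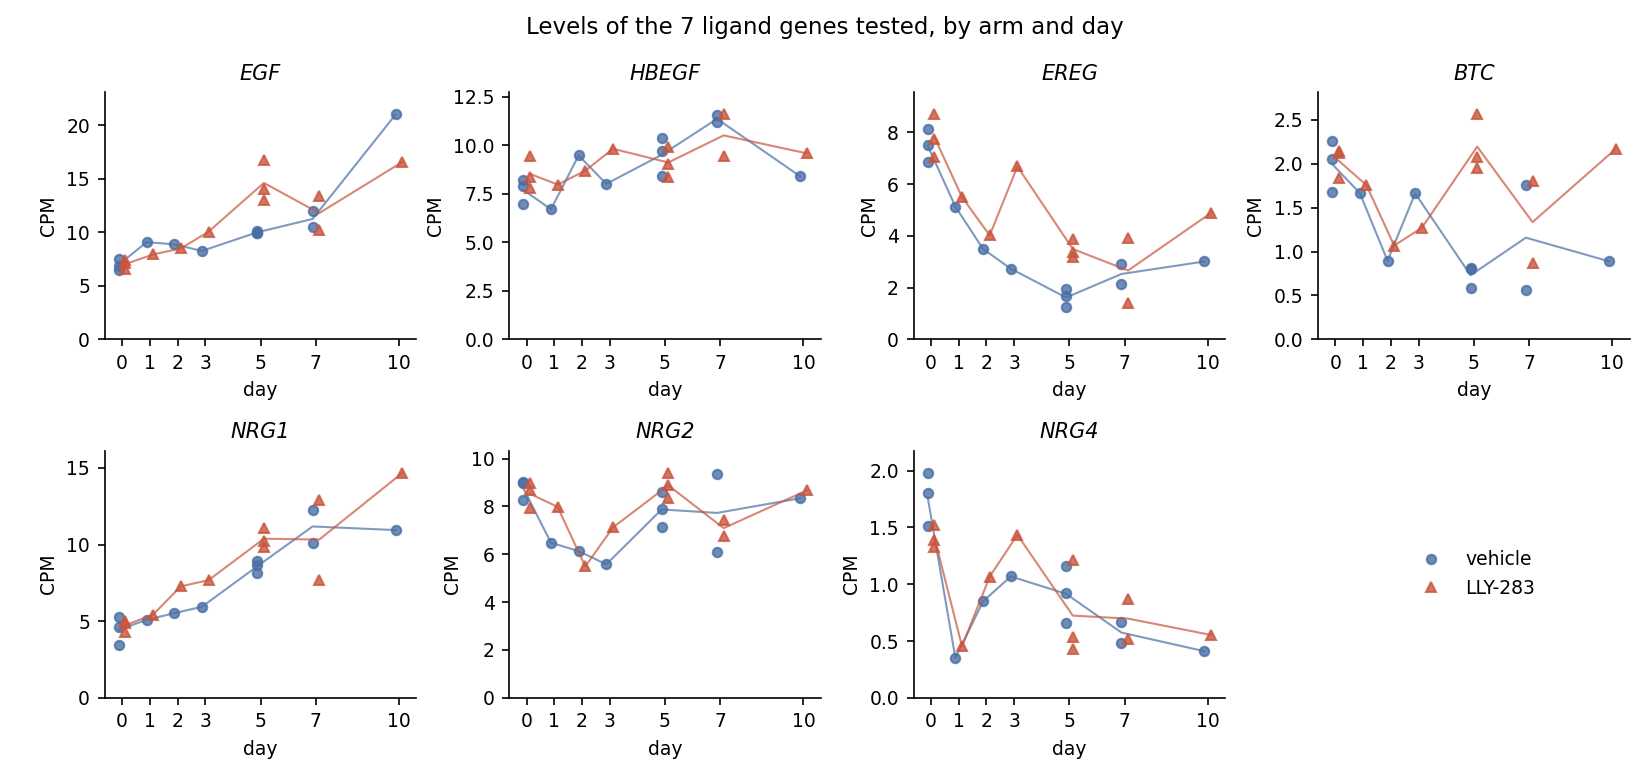
Level in CPM (vertical axes, starting at 0 and scaled per gene) by day (horizontal axes) of the 7 ligand genes that passed the filter at day 5, with vehicle as blue circles, LLY-283 as red triangles and lines through the means. EREG drops from about the level of day 0, 6.84 to 8.69 CPM, to 1.25 to 1.94 CPM with vehicle at day 5 and to 3.19 to 3.90 CPM with LLY-283, and EGF and BTC are separate between the arms at day 5.

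Ligands are released from the membrane by the proteases ADAM10 and ADAM17, and the iRhoms RHBDF1 and RHBDF2 carry ADAM17 to the surface. At day 5 ADAM10 was at 168 ± 2.88 CPM with vehicle and 175 ± 4.20 CPM with LLY-283, and ADAM17 at 68.8 ± 1.73 and 71.1 ± 4.40 CPM, and neither was called. The iRhom genes were called in opposite directions, where 12% of all genes tested were called higher and 14.1% lower. RHBDF1 was 0.46 higher with LLY-283 (SE 0.0879, adjusted p = 1.2e-04, edgeR), at 19.8 ± 2.06 against 14.3 ± 0.308 CPM, and RHBDF2 was lower by -0.25 (SE 0.0572, adjusted p = 0.0010), at 34.9 ± 1.76 against 41.3 ± 1.01 CPM (SD, n = 3 each).

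A list of 12 genes covers inhibition and turnover of the receptors, and a place in it does not mean that a gene restrains them. Of these, 11 were tested at day 5, and 4 were called higher and 1 lower, with a median difference of 0.04. Of all genes tested, 12% were higher and 14.1% lower. ERRFI1, whose product MIG6 binds and blocks the EGFR kinase and so blocks signalling, was among the 4 called higher. On day 5 it stood at 553 ± 14.7 CPM with vehicle and 662 ± 13.0 CPM under LLY-283, a difference of 0.25 (SE 0.0343, adjusted p = 1.4e-06, edgeR). From day 0, with 264 ± 4.73 CPM in vehicle and 257 ± 0.311 CPM in LLY-283 libraries, ERRFI1 rose by 1.08 with vehicle and by 1.37 with LLY-283 on the log2 scale. CBLB, which encodes a ubiquitin ligase of activated receptors, was 0.37 higher at day 5 (adjusted p = 8.8e-06), at 42.5 ± 1.02 against 32.6 ± 1.75 CPM. The leucine-rich repeat genes LRIG1 and LRIG2 were higher by 0.16 and 0.34 (adjusted p = 0.0011 and 1.0e-04). STUB1, the gene of the ligase CHIP, was called lower, at -0.19 (adjusted p = 0.0043), a call lost without vehicle day 5 repeat 3 (-0.14, adjusted p = 0.035). CBL, LRIG3, RNF41, USP8, PTPN1 and PTPN2 were not called at day 5, and CBLC did not pass the filter. Over days 1 to 10, LRIG2 (0.23, adjusted p = 0.0073) and STUB1 (-0.19, adjusted p = 0.0068) were called, beside 3.06% of all genes tested. ERRFI1 was at 0.04 in that fit (adjusted p = 0.72), CBLB at 0.20 (0.019) and LRIG1 at 0.06 (0.15), and none of them was called. Without the 3 libraries high in fibroblast genes, no gene at all was called in that fit.

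**Figure D5:**
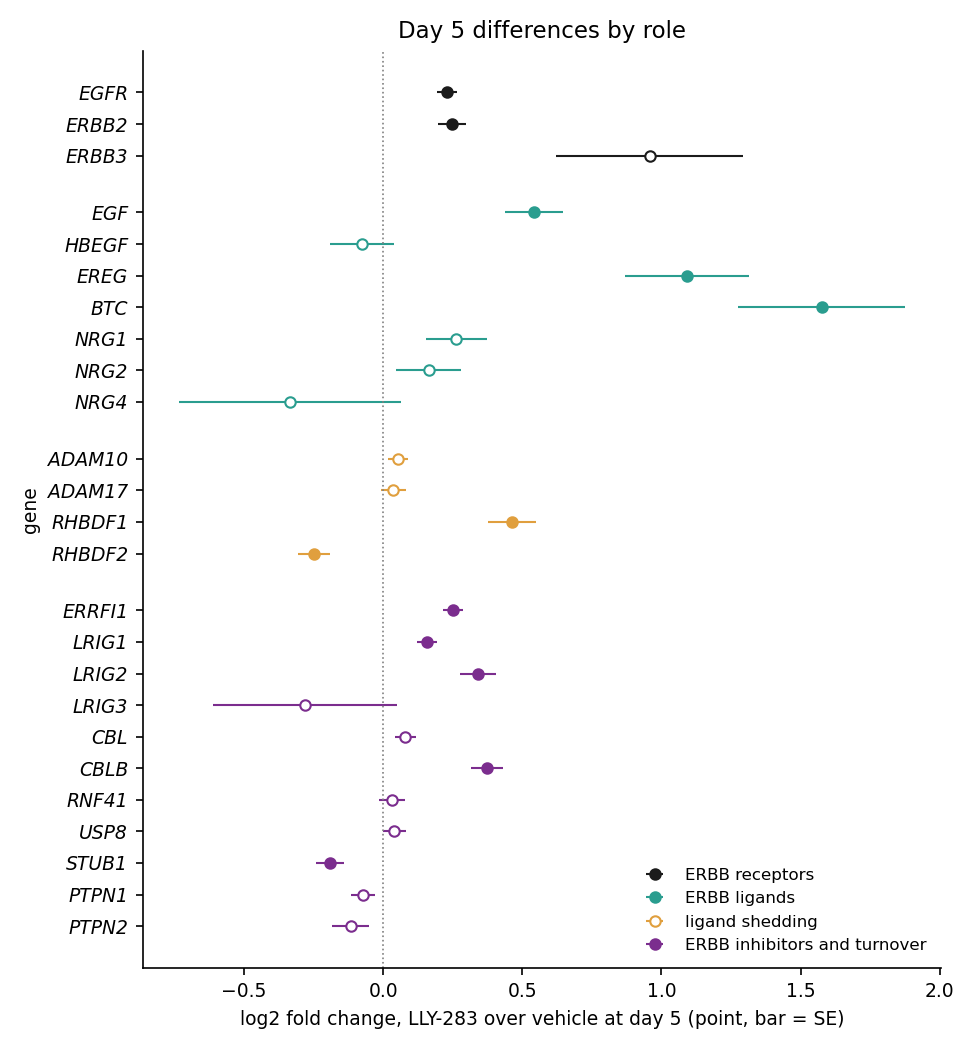
Fitted log2 fold change of LLY-283 over vehicle at day 5 (horizontal axis, points) with its SE (bars). Genes (vertical axis, coloured by role) are the receptors, ligands, shedding genes, and inhibitor and turnover genes that passed the filter. Filled points mark genes called at an adjusted p under 0.01 and open points the others. EGFR at 0.23 and ERBB2 at 0.25 lie close together, BTC, a gene of low level, lies farthest to the right at 1.58, and RHBDF2 and STUB1 are the called genes below 0.

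Further down the pathway, the adaptor and effector genes showed no common direction between the arms at day 5. Of 37 genes, 34 were tested at day 5, with 6 called higher and 5 lower and a median difference of 0.03, where 12% of all genes were higher and 14.1% lower. By the smallest p, PLCG1, the phospholipase that binds activated EGFR, was 0.53 higher with LLY-283 (SE 0.0389, adjusted p = 4.1e-11, edgeR), at 479 ± 22.9 against 330 ± 1.36 CPM. The scaffold gene GAB2 was 0.40 higher (adjusted p = 3.3e-05), the kinase gene MAP2K1 was lower by -0.32 (adjusted p = 4.1e-07), and NRAS was lower by -0.22 (adjusted p = 1.0e-04). All 18 genes of a list of MAPK-induced genes were tested, with 7 called higher, 4 called lower and a median difference of 0.02, against the same 12% and 14.1%. Without vehicle day 5 repeat 3 the counts were 5 and 4. Of these the smallest p values were for PHLDA1 (0.39), MYC (-0.33), the MAPK phosphatase gene DUSP4 (0.47) and CCND1, the cyclin D1 gene (0.27). None of the 18 was called between the arms at day 0, but some differences were there already, with MYC at -0.13 and EGR1 at 0.20, against 0.24 for EGR1 at day 5. In the interaction of days 0 and 5, 4 of the 18 were called higher and 2 lower, where 14.9% of all genes were called. From day 0 to day 5, the number of the 18 called higher was 10 with vehicle and 11 with LLY-283, against 1 and 5 called lower. Of the adaptor and effector genes, 34 were tested over these days in each arm. With vehicle 18 were called higher and 1 lower, and with LLY-283 17 were called higher and 4 lower. Of all genes tested, 22.2% with vehicle and 22.9% with LLY-283 were called higher, and 16.7% and 19.5% lower.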

How the data were processed

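RNA of HSJD-DIPG-007 cells in 24 libraries was sequenced from directional poly(A) libraries. Per the labels, the authors assigned reads with kallisto to human transcripts (hg38), and the deposited table holds estimated counts per gene that are whole and not scaled for depth. The kallisto version, annotation and strand setting are not given in the sources used here. Of 58676 identifiers, 58207 matched a symbol in GENCODE on GRCh38. Samples were grouped by the arm and day of their titles.

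Counts were tested with edgeR 4.0.16 in R 4.3.3 (TMM, edgeR's filter on low counts by arm and day with a minimum count of 10, robust quasi-likelihood tests, Benjamini-Hochberg adjustment over all genes tested, calls under 0.01). CPM used the TMM factors of the 24 libraries, and log2 CPM a prior count of 2. Levels between genes were divided by the longest annotated transcript. Alternatives were DESeq2 1.42.0, its size factors, library size alone, other filters, a block for the repeat number, a shared fit over 22 libraries and each library left out in turn. Scripts were checked on simulated counts. The receptors, the lists, the markers and the tests were chosen with earlier results of these data known. Named genes were the receptors and the ligand, shedding, and inhibitor or turnover genes. Others were the 4 genes of smallest p called in each of the adaptor and MAPK-induced lists. Genes among the 3 most correlated with each receptor were also named. ETV4, ETV5, EGR1 and SPRY4 were named besides, for calls that changed when a library was left out. Protein sequences were not used here. Marker lists of other cell types served as descriptions. Total counts per library, which limit the precision, were 13835205 to 23190369. Correlations between same-numbered libraries were 0.049, 0.112 and -0.088 between the arms at day 5, 0.314, 0.114 and 0.075 between LLY-283 at day 0 and day 5, and -0.283 to 0.035 in the other pairs of days 0 and 5. No set had every value over 0.1, so the numbers were not taken as pairs.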

Additional observations from a re-analysis of the deposited data

Results flagged for a closer look

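The difference between the treatment effects of day 5 and day 0 was tested over those days alone in edgeR. It passed an adjusted p of 0.01 for 10 of the 26 receptor, ligand, shedding, and inhibitor or turnover genes tested. Of all 18369 genes, 14.9% passed. Each value is the log2 difference of LLY-283 against vehicle at day 5 minus that at day 0. For the receptors it was 0.19 for EGFR (adjusted p = 0.0042) and 0.29 for ERBB2 (adjusted p = 0.0077). For the ligand genes it was 0.54 for EGF (adjusted p = 0.0087), 1.04 for EREG (0.0011) and 1.56 for BTC (0.0014). It was 0.53 for RHBDF1 (7.9e-04). For the inhibitor and turnover genes it was 0.30 for ERRFI1 (2.2e-05), 0.45 for CBLB (1.6e-04), 0.18 for LRIG1 (0.0068) and 0.38 for LRIG2 (0.0027). Without vehicle day 5 repeat 3, EGFR (0.17, adjusted p = 0.019), ERBB2 (0.26, 0.028) and EGF (0.53, 0.019) no longer passed, and the other 7 did. None of the 10 passed in the interaction test over the 22 libraries of days 0 to 7. No group has more than 3 libraries, so no library was tested for standing apart from its group.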

How the results depend on the processing

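At day 5, the calls of EGFR and ERBB2 held in DESeq2, with other scalings and filters and with each library left out, where EGFR lay between 0.20 and 0.25, ERBB2 between 0.21 and 0.28, ERBB3 between 0.82 and 1.12 and the count of called genes between 3193 and 4423. The exception was the shared fit over 22 libraries, with ERBB2 at 0.22 and 2042 genes called against 4304. ERBB3 (0.96) was past a threshold of 0.05 on all libraries (adjusted p = 0.027), but not without the filter (0.057) or with some libraries left out (up to 0.10). At day 0, where 3 genes were called, 56 were called without the filter on low counts, 6 with the replicate block and 0 to 17 with 1 library left out. The 0 (740 genes at an unadjusted p under 0.05, and 4 called by DESeq2 on all libraries) was without LLY-283 day 0 repeat 1. Sign changed with 1 library left out at day 0 for ERBB2 (-0.09 to 0.01), ERBB3 (-0.62 to 0.19) and ERBB4 (-0.10 to 0.22), and between days for ERBB3 in vehicle (-0.61 to 0.20) and for ERBB4 with LLY-283 (-0.16 to 0.67). The libraries left out were LLY-283 day 0 repeat 3 for ERBB2, vehicle day 0 repeat 1 for ERBB3, and vehicle day 0 repeats 2 and 3 and LLY-283 day 5 repeat 1 for ERBB4. With at least 10 counts in every library, ERBB3 was called between days with LLY-283 (0.94).

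For days 1 to 10, the 614 calls became 1727 in DESeq2, 331 with library size alone, 2301 without the filter, 0 with the replicate block (5781 genes at an unadjusted p under 0.05), 3591 without both day 7 repeat 2 libraries, 0 without the 3 libraries high in fibroblast genes (4469 unadjusted) and 0 to 2913 with 1 library left out, the highest without LLY-283 day 7 repeat 2. EGFR there was 0.17 and called in DESeq2, with its size factors and without the filter, 0.20 with library size alone, 0.19 with at least 10 counts and without the day 7 repeat 2 libraries, and 0.15 to 0.19 with 1 library left out. For the interaction over days 0 to 7, the 6 calls became 249 in DESeq2, 10 with its size factors, 11 with library size alone, 1217 without the filter, 10 with at least 10 counts, 1 with the replicate block, 2002 without the day 7 repeat 2 libraries, 2742 on days 0 and 5 alone and 0 to 894 with 1 library left out, the highest without LLY-283 day 7 repeat 1. On days 0 and 5 alone, EGFR reached an adjusted p of 0.0042 and ERBB2 of 0.0077, past 0.01 in 6 and 4 of 12 cases with 1 library left out. The cause of these shifts was not tested.

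Same-numbered libraries share only a number, and the replicate block changed no call of a receptor. At day 5 it gave 4401 called genes, with EGFR at 0.23 and ERBB2 at 0.25. ERBB3 and ERBB4 are limited by depth, at 8 to 27 and 2 to 23 counts in a library. Exact 0 counts did not occur for a receptor.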
